A study of Mus musculus with 6 samples.

Results

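The 35 genes described here encode components, regulators and receptors of the complement system, and C7 is the member that set the choice of the group. They were taken by symbol from a table of 55536 genes counted in mouse pancreatic islets, and all 35 were found. Islets of Klf4fl/fl;Gcg-iCre mice, here called knockout, were compared with islets of Klf4+/+;Gcg-iCre mice, here called control, with 3 libraries of polyadenylated RNA per genotype. Both groups carry Gcg-iCre, a Cre recombinase driven by glucagon regulatory sequence and so meant to act in alpha cells, the islet cells that make glucagon. The deletion is of Klf4, which encodes a zinc-finger transcription factor, and the strain is written as C57B1/6J. The labels give neither sex nor age, and nothing says whether libraries came from separate animals, so every test measures the spread between these libraries, which may be technical. Whole islets were sequenced, and therefore fewer cells of a type and less RNA per cell cannot be told apart.

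The group was named after C7 because its difference between the genotypes was already known, and knockout replicate 1 is read apart because transcripts of liver-made proteins had been seen there. The values of C7 and of the liver-made members are therefore a description. The genotype contrast of the other members was also known when the group was drawn up, and the calls given for them describe these libraries and support nothing further.

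Complement is a cascade of plasma proteins that marks targets for removal and can open pores in membranes. The classical route starts with C1q and the proteases C1r and C1s, the lectin route with mannose-binding lectins or ficolins and their MASP proteases, and the alternative route with factor B and properdin. All routes cleave C3, and the terminal components C5 to C9 then assemble the membrane attack complex. The liver makes most of the plasma proteins among them. C1q is made mainly by macrophages, and fibroblasts and endothelial cells can make C3, C4, C1r, C1s and C7. Host cells are protected by inhibitors in plasma and on the cell surface.

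Among the members that rose in knockout islets, C7, C3, C1rl, C1qb and C1qc have an upstream sequence in the RefSeq table, and it is shown for the 3 with the largest fold changes, a choice made after the values were seen. Each is the 250 bases before the RefSeq transcription start in GRCm38.p6, written 5′ to 3′ on the strand of the gene. C7 lies at chr15:5063774-5064023 on the minus strand, C3 at chr17:57228137-57228386 on the minus strand and C1rl at chr6:124492863-124493112 on the plus strand. Capitals mark the only matches to 5 searched motifs, which are a STAT motif in C7 and a C/EBP motif in C3 and C1rl.
C7: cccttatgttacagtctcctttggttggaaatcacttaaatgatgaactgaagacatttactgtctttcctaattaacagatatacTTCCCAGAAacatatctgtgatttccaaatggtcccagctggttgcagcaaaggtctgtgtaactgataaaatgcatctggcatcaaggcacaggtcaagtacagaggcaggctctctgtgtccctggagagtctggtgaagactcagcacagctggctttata
C3: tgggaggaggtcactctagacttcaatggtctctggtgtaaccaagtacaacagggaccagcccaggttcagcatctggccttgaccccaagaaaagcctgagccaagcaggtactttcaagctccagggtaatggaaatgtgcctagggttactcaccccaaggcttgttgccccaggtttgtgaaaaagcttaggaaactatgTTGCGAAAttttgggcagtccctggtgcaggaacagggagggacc
C1rl: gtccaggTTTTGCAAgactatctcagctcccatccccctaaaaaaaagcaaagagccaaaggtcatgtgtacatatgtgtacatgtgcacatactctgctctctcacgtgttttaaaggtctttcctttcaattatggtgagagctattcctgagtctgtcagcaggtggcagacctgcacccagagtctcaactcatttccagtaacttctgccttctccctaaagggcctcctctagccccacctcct
The motifs were searched on both strands as GGGNGTG for KLF factors, TTCNNNGAA for STAT and TTGCNNAA for C/EBP, beside the interferon-stimulated response element and the glucocorticoid response element. Of 32851 mouse windows of this length, 26.1% hold the KLF letters, 2.98% the interferon response letters, 7.02% the STAT letters, 9.56% the C/EBP letters and 0.368% the glucocorticoid receptor letters. The table matched 26 of the 35 members in 29 windows, and 8, 1, 3, 5 and 0 of these windows hold the 5 motifs in that order. The STAT match of C7 spans positions -164 to -156 before the start. In C3 the C/EBP match spans -45 to -38, and in C1rl it lies at -243 to -236 on the opposite strand. The window of C1qb holds none of the 5 motifs, and that of C1qc holds the KLF letters at -232 to -226. These matches are letters in a window and were not measured as binding.

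Library facts that touch every result come first. Totals ran from 101277200 to 110243918 counts. Klf4 itself was at 3148, 2879 and 2015 normalized counts (counts divided by a size factor per library) in the controls and at 2340, 2540 and 2277 in the knockouts, so the groups overlapped. Here and below, values of single libraries follow the order of replicates 1, 2 and 3. Xist was at 77938 to 108105 in controls and 12.4 to 30.2 in knockouts, while Ddx3y was at 0 in every control and at 5599 to 6265 in knockouts. Genotype and the sex-linked transcripts thus divide the libraries identically, and the 2 cannot be told apart in any difference below. A list of 15 hepatocyte genes summed to 2203 to 3260 in controls and to 117986, 6646 and 2440 in the knockouts. Albumin, Alb, alone was at 51331 in knockout replicate 1, at 1743 in replicate 2, and at 122 in replicate 3 against 103 to 213 in controls. The sum and Alb were thus highest in knockout replicate 1 and lower in replicate 2, whereas Cyp2e1, another gene of the list, was at 218 in replicate 1 and 281 in replicate 2. The control sums are mostly Ambp, at 1556 to 2713, and in knockout replicate 3 the sum and Alb lay within the control range, while Plg (14.0 against at most 5.76), Hpx (25.9 against at most 17.3) and Ahsg (18.0 against at most 15.9) were above every control. Ins2, the insulin gene that defines the beta cells of islets, was at 11805849 or more in all 6 libraries, as the islet label has it.

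Of the 35 members, 30 were given an adjusted p-value by DESeq2, and of these 8 rose and 1 fell in knockout islets at an adjusted p under 0.05. Across all 17797 genes with an adjusted p-value, 1.53% were called higher and 0.657% lower. The members that rose were C7, C1rl, C3, C4b, Cfi, Serping1, C1qb and C1qc, and C8b fell. The median log2 fold change of the 30 members was 0.43, against -0.0061 over all genes tested. The remaining 5 members, Mbl1, Cfb, Hc, C8a and C9, were given none. Nearest to the threshold lay C3 inside it (adjusted p = 0.0363, DESeq2) and Masp2 outside it (0.108). In the edgeR quasi-likelihood test, where 0.0952% of genes were called higher and 0.0198% lower, 1 member rose and 0 fell, and the member was C7. At an unadjusted p under 0.05, 14 of the 35 members were higher and 1 lower in edgeR, against 5.71% and 3.78% of all genes. In DESeq2 11 of 31 members with a p-value were higher and 2 lower, against 5.2% and 3.83%. Without knockout replicate 1, 4 members rose (C7, C1rl, C3 and C4b) and 0 fell in DESeq2, where the shares over all genes were 0.615% and 0.264%. At an unadjusted p under 0.05 that fit had 8 of 32 members higher and 2 lower, against 3.25% and 2.63% of all genes. With another library left out, the members that rose and fell in DESeq2 numbered 5 and 1 without control replicate 1 (shares over all genes 1.59% and 0.908%), 4 and 0 without control replicate 2 (1.13% and 0.438%) and 4 and 0 without control replicate 3 (3.8% and 2.48%). They numbered 11 and 1 without knockout replicate 2 (1.54% and 0.711%) and 7 and 0 without knockout replicate 3 (1.17% and 0.324%). Among the 11 were C8a, C9 and Masp2, among the 7 Hc and Mbl2, and among the 4 without control replicate 2 Mbl1. None of these was called with all libraries, and all were highest in knockout replicate 1. Among 30 members with a mean of at least 50 normalized counts, the groups did not overlap for 9 that were higher and 1 that was lower, against 9.42% and 8.54% of all such genes. C7, which set the choice of the group, is one of the 9 and reaches that mean only through the knockouts (30.6 in controls). Hc, C6, C8a, C9 and Masp2 reach it only through knockout replicate 1, and their groups overlapped.

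**Figure D1:**
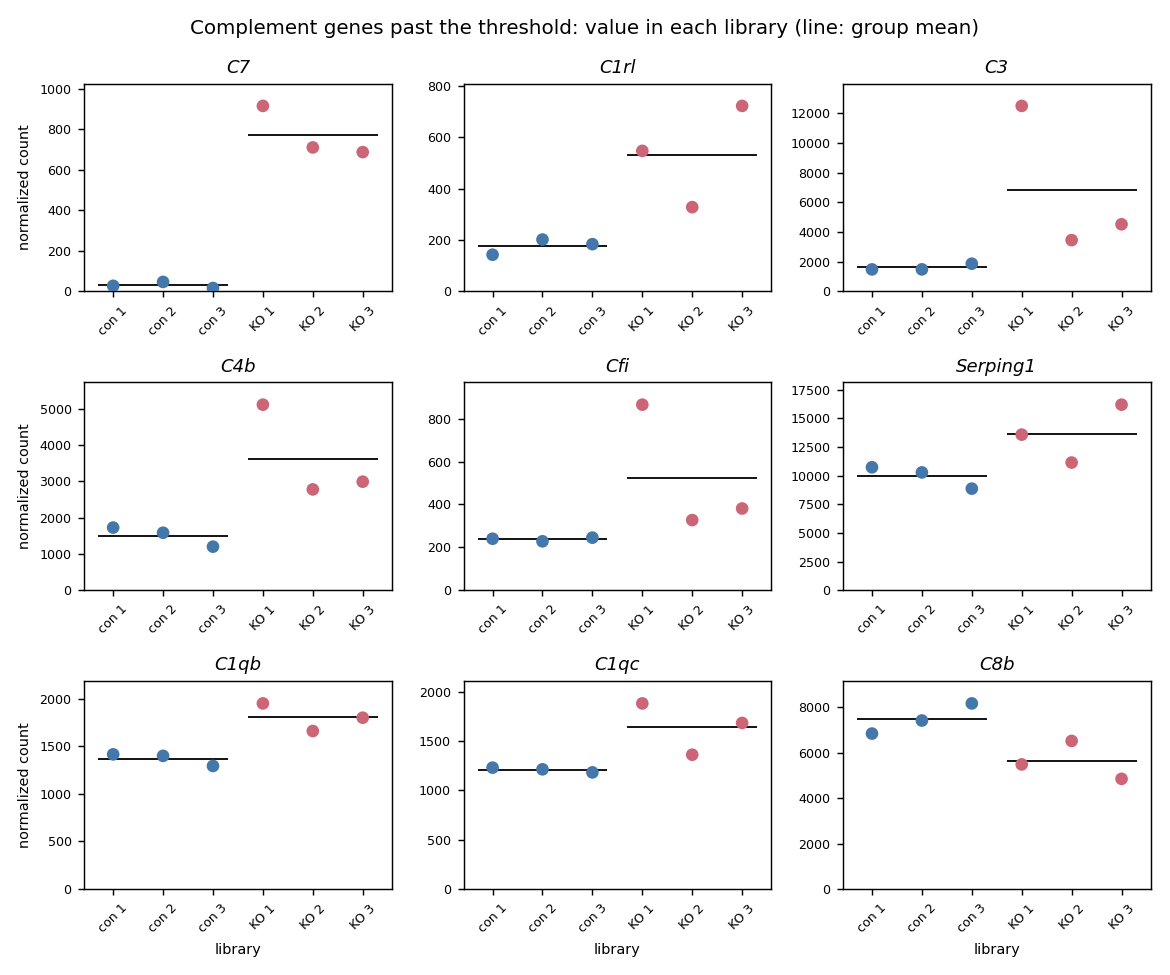
Normalized count (vertical axis, starting at 0) of the 9 members past the threshold in each library (horizontal axis), with the control libraries in blue, the knockout libraries in red and a line at each group mean. C7 has the widest separation as a ratio, at 17.0 to 47.0 in controls and 688 to 916 in knockouts, and C8b is the member that is lower.

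C7 encodes the terminal component that anchors the growing membrane attack complex to the membrane. The gene (ENSMUSG00000079105) lies on chromosome 15 from 4988762 to 5063740, minus strand, GRCm38. It was at 27.8, 47.0 and 17.0 normalized counts in the controls and at 916, 711 and 688 in the knockouts. The lowest knockout library was far above the highest control, and the 3 knockout libraries lay close together. Its group means were 30.6 ± 15.2 and 771 ± 126 (SD, n = 3 each), a 25.2-fold ratio and a log2 fold change of 4.65 ± 0.27 (SE). Per kilobase of exon, C7 moved from 27th of the 35 members in controls, at 11.4 ± 5.69 normalized counts, to 15th in knockouts, at 288 ± 47.0. In the fits that left out 1 library each, the log2 fold change lay between 4.36 and 5.10. Without knockout replicate 1, where the hepatocyte sum was highest, the mean was 22.8 times the control mean. Knockout replicate 2, which stays in that mean, also held Alb above the controls (1743 against at most 213). The part of liver RNA in the C7 difference was not tested.

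No exon of C7 overlaps another annotated gene, and Gm25652, a small nuclear RNA gene within its span, was at 0 in all 6 libraries. Within 500 kb on either side, C7 was the only gene called among those with a mean of at least 10 normalized counts. Its neighbour C6, which begins the assembly of the pore on C5b and lies 174 kb away, was at 31.7, 71.0 and 36.1 in controls and at 132, 53.6 and 47.9 in knockouts. The groups of C6 overlapped, and it did not pass (log2 fold change 0.75 ± 0.51, adjusted p = 0.640 in DESeq2). On the other side, Card6 was at a mean of 2160 in controls and 2170 in knockouts, and Ptger4, a prostaglandin receptor gene, at 224 and 270. The ratio of C7 to C6 counts within a library was 0.47 to 0.88 in controls and 6.93 to 14.4 in knockouts.

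Of 10 fibroblast and stellate markers, 7 rose in DESeq2 and 3 in edgeR, and Lum, Pdgfrb and Dpt passed in neither. None was at 0, and their sum was 57273 to 74628 in controls and 105464 to 113088 in knockouts. Pdgfra, a fibroblast receptor gene, was at 585, 629 and 626 in controls and at 1157, 982 and 1223 in knockouts. The count of C7 per count of Pdgfra was 0.0475, 0.0748 and 0.0271 in controls and 0.792, 0.724 and 0.562 in knockouts. The group means of this ratio differed 13.9-fold, and those of C7 per count of Col1a1, a collagen gene, 13.4-fold. Of 6 acinar markers 0 passed in DESeq2 or edgeR and 5 were higher at an unadjusted p under 0.05 in each; their sum was 349801 to 732430 in controls and 925356 to 1322678 in knockouts, without overlap. The part of either cell type in the C7 difference was not tested.

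The other terminal components fell into separate patterns. Hc, which encodes C5, was at 0, 1.92 and 2.12 normalized counts in controls and at 1216, 12.4 and 0 in knockouts. C8a, the alpha chain of C8, was at 0 in all 3 controls and at 771, 6.19 and 0 in knockouts. C9, which polymerises into the pore, was at 0 in all 3 controls and at 749, 4.13 and 0 in knockouts. These 3 genes were thus high in knockout replicate 1, near the floor in replicate 2 and at 0 in replicate 3, in the same order as Alb. A library at 0 allows up to 3 counts, and no fold is given for C8a and C9. DESeq2's outlier filter (Cook's distance) withheld the p-values of Hc, C8a, C9 and Mbl1. With that filter off, C8a and C9 were called higher (adjusted p = 7.11e-07 and 7.36e-07, DESeq2) and Hc and Mbl1 were not (0.127 and 0.749), all on values that rest on knockout replicate 1. C8g, the gamma chain of C8, was at 258, 159 and 168 in controls and at 346, 263 and 182 in knockouts, with overlap.

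C8b, the beta chain of C8, was high in all islets and lower in the knockouts. It was at 6839, 7414 and 8166 normalized counts in controls and at 5482, 6515 and 4848 in knockouts. Every knockout library was below every control, with a log2 fold change of -0.41 ± 0.12 (SE) and an adjusted p of 0.0231 in DESeq2. C8b lies 11.1 kb from C8a on chromosome 4, yet in controls it held 2940 ± 262 normalized counts per kilobase, rank 4 of the 35 members, while C8a was at 0. In knockout replicate 1, C8b was below every control. Of 5 alpha-cell markers, 3 fell in DESeq2 and 0 in edgeR, with all 5 lower at an unadjusted p under 0.05 in each. None was at 0, and their sum was 3879933 to 5664072 in controls and 2874964 to 3550931 in knockouts. The count of C8b per count of Gcg, the glucagon gene, was 0.00162, 0.00132 and 0.00212 in controls and 0.00192, 0.00185 and 0.00165 in knockouts, so the groups overlapped. Whether C8b transcripts came from alpha cells was not tested. The call was lost without control replicate 2, control replicate 3, knockout replicate 1 or knockout replicate 3, with adjusted p-values of 0.139, 0.0633, 0.269 and 0.224 in DESeq2.

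**Figure D2:**
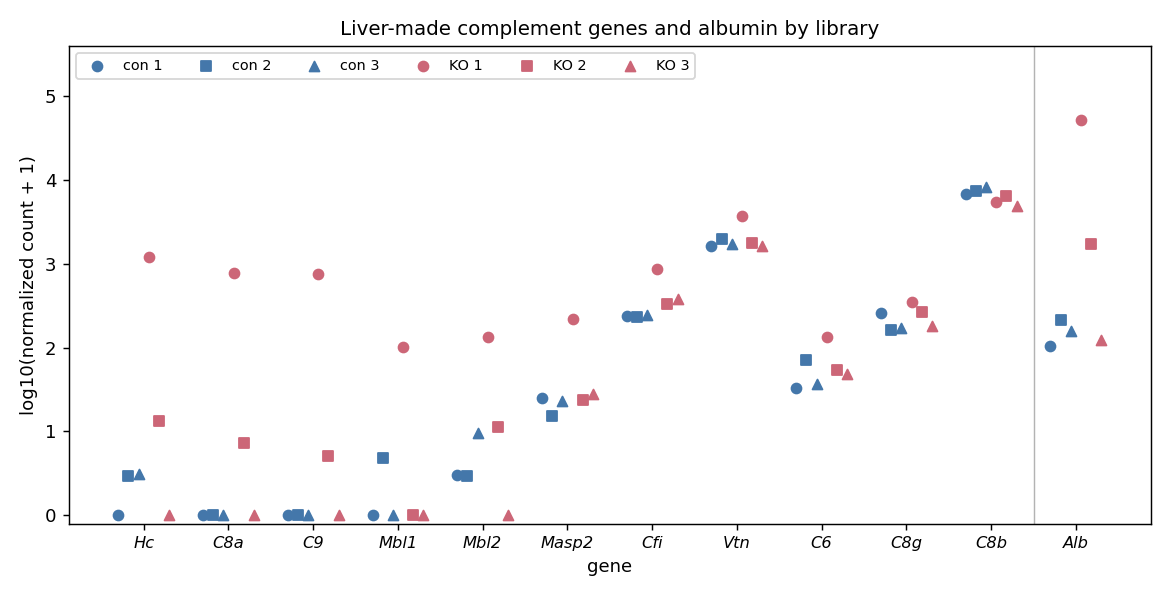
Log10 of the normalized count plus 1 (vertical axis) of the 11 members in the liver-made subset and of albumin, Alb, in each of the 6 libraries (controls blue, knockouts red, symbols by replicate). Hc, C8a, C9, Mbl1, Mbl2 and Masp2 are far higher in knockout replicate 1, where Alb reaches 51331, whereas C8b is not.

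For reading knockout replicate 1, a subset of 11 members known as liver products was set apart, namely Hc, C6, C8a, C8b, C8g, C9, Cfi, Masp2, Mbl1, Mbl2 and Vtn. Of these, 10 were highest in knockout replicate 1 and 6 were there more than 5 times their level in any other library, namely Hc, C8a, C9, Masp2, Mbl1 and Mbl2. Of the 24 members outside the subset, some of which, such as C3, C4b and Serping1, the liver also makes, 0 were above 5 times. Being highest in that library was not limited to the subset, since 24 of all 35 members were. Of all genes with a mean of at least 50 normalized counts, 13.7% were highest there and 0.538% were above 5 times. Mbl1 and Mbl2 do not reach that mean, and Hc, C6, C8a, C9 and Masp2 reach it only through that library. None of the 6 members above 5 times therefore reaches it without that library. Mbl1, a mannose-binding lectin gene, was at 0, 3.84 and 0 in controls and at 102, 0 and 0 in knockouts. Mbl2, its relative, was at 1.98, 1.92 and 8.49 in controls and at 134, 10.3 and 0 in knockouts. The summed level of the 11 genes was 9025, 9888 and 10349 in controls and 13744, 8993 and 7114 in knockouts. C8b makes up most of it except in knockout replicate 1, where C8b was at 5482. Without C8b the sum was 2186, 2474 and 2183 in controls and 8262, 2478 and 2266 in knockouts. In knockout replicates 2 and 3 it was thus between 2266 and 2478, close to the control range.

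Vtn, which encodes vitronectin, an inhibitor of pore assembly, was at 1631, 1993 and 1702 in controls and at 3729, 1779 and 1629 in knockouts. Only knockout replicate 1 lay above the controls. Without it the log2 fold change of Vtn went from 0.42 to -0.060. Masp2, the protease that starts the lectin route, was at 14.4 to 23.8 in controls and at 218, 22.7 and 26.9 in knockouts. Tardbp, an abundantly counted gene on the other strand, covers 54.9% of the exon sequence of Masp2, and the strand setting of the counting is not known here, which makes the Masp2 count uncertain.

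C3 and C4b, the central thioester proteins of the cascade, rose in the knockouts. C3 was at 1483, 1486 and 1866 normalized counts in controls and at 12483, 3453 and 4521 in knockouts. All 3 knockout libraries were above all controls, and replicate 1 was 2.76 times the next. The log2 fold change was 2.08 ± 0.61 (SE). Hepatocyte markers were also highest in knockout replicate 1, and without that library the log2 fold change of C3 was 1.31 (adjusted p = 8.35e-13, DESeq2). The fibroblast and stellate sum given above did not overlap between the genotypes either, and the part of liver or fibroblast RNA in the C3 difference was not tested. Without control replicates 1, 2 or 3 the adjusted p of C3 was 0.169, 0.256 and 0.0649, so that the call was lost, as it was without independent filtering of low counts (0.0502, DESeq2).

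C4b was at 1727, 1584 and 1201 in controls and at 5115, 2779 and 2992 in knockouts, again without overlap and highest in knockout replicate 1. Its log2 fold change was 1.27 ± 0.33 (SE) with all libraries and 0.94 without knockout replicate 1 (adjusted p = 0.0112 and 5.79e-06, DESeq2). Without control replicates 2 or 3 the adjusted p was 0.103 and 0.0510. C4a, a near copy of C4b known as sex-limited protein, was at 166, 180 and 119 in controls and at 212, 144 and 191 in knockouts and did not pass. The pair shares sequence: 34.6% of the 50-base words in C4b transcripts also occur in C4a, so reads may have been lost or moved between them. The ratio of C4b to C4a counts was 8.82 to 10.4 in controls and 15.7 to 24.2 in knockouts, with no overlap.

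The remaining convertase genes were level or too low to read. C2, the protease of the classical convertase, was at 109 to 164 in controls and 113 to 132 in knockouts. Cfp, which encodes properdin, was at 289 to 570 in controls and 482 to 599 in knockouts. Cfb, which encodes factor B, had between 0 and 19 counts per library. The transcript Gm20547 covers 79.5% of the exon sequence of Cfb and was itself at 0, and most of Cfb's 50-base words (73.0%) also occur in it. The count of Cfb, and to a lesser degree that of C2 (46.9% of its exons overlapped by Gm20547 and by Zbtb12, which is counted on the other strand), therefore depends on how shared reads were counted.

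The 3 chains of C1q, the sensor of the classical route, did not move together. C1qb was at 1414, 1398 and 1292 normalized counts in controls and at 1949, 1659 and 1799 in knockouts. C1qc was at 1230, 1213 and 1182 in controls and at 1881, 1361 and 1683 in knockouts. Both were without overlap and rose, with log2 fold changes of 0.40 ± 0.10 and 0.44 ± 0.13 (SE) and adjusted p-values of 0.00854 and 0.0314 in DESeq2. C1qa was at 5872, 6473 and 5138 in controls and at 4692, 5666 and 4099 in knockouts, with overlap, and did not pass (log2 fold change -0.27 ± 0.13, adjusted p = 0.348, DESeq2). The ratio of C1qb to C1qc was nearly constant, at 1.13 ± 0.03 (SD, n = 3) in controls and 1.11 ± 0.10 (SD, n = 3) in knockouts. The ratio of C1qa to C1qb was 4.15, 4.63 and 3.98 in controls and 2.41, 3.41 and 2.28 in knockouts, without overlap.

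The 3 genes lie side by side on chromosome 4, with gaps of 3.62 and 2.85 kb, and none of their exons overlaps another annotated gene. Per kilobase of exon, C1qa held 5600 ± 643 normalized counts in controls, against 1260 ± 61.0 for C1qb and 626 ± 12.7 for C1qc. Of 10 macrophage markers, 2 rose in DESeq2 (Cd68 and Mrc1) and 0 in edgeR, with 5 higher at an unadjusted p under 0.05 in each. None was at 0, and their sum was 6548 to 6855 in controls and 7427 to 9636 in knockouts. Per count of the macrophage gene Cd68, C1qb was at 2.72 to 3.44 in controls and 2.57 to 2.99 in knockouts, with overlap. C1qc per count of Cd68 was at 2.49 to 3.00 and 2.45 to 2.52, also with overlap. Per count of Csf1r, a macrophage receptor gene that did not pass, the means lay the other way, at 0.719 in controls and 0.826 in knockouts for C1qb and at 0.635 and 0.750 for C1qc, again with overlap. The part of macrophage number in the C1qb and C1qc differences was not tested. The call of C1qb was lost without knockout replicate 1 or 3 (adjusted p = 0.183 and 0.0641, DESeq2). That of C1qc was lost without control replicate 1 or 2 or knockout replicate 1 or 3 (0.102, 0.164, 0.410 and 0.218).

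**Figure D3:**
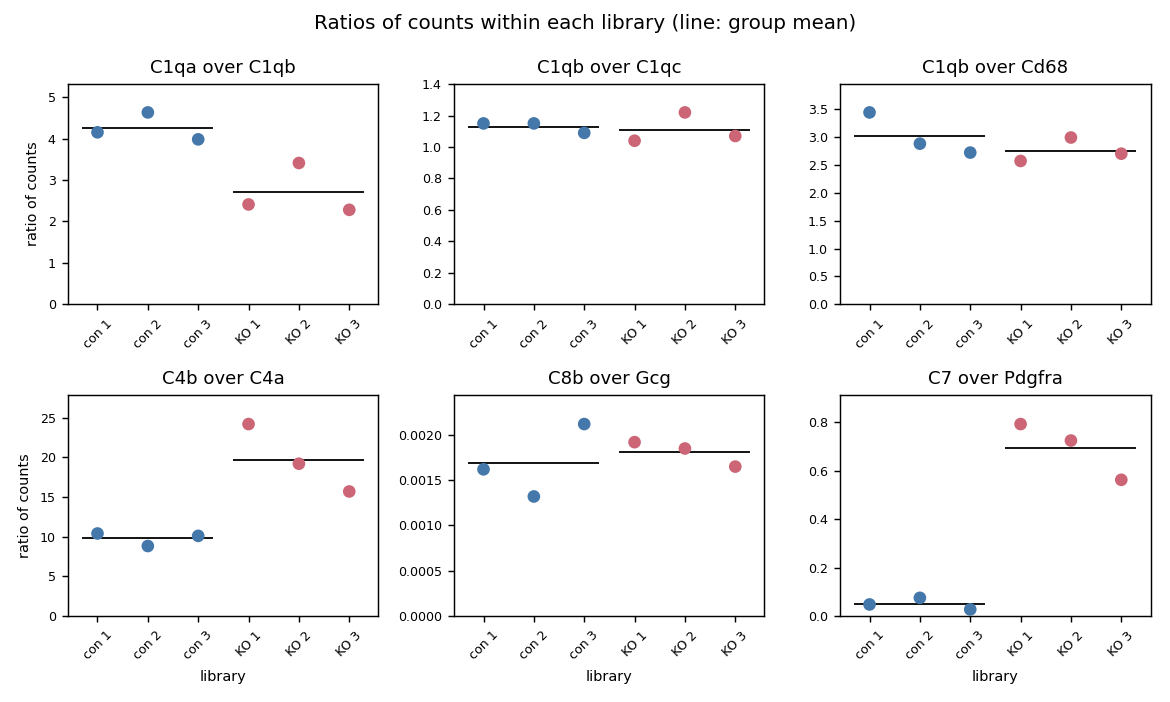
Ratio of the counts of 2 genes within each library (vertical axes, starting at 0) for the 6 libraries (horizontal axes; controls blue, knockouts red, line at the group mean). C1qa over C1qb, C4b over C4a and C7 over Pdgfra separate the genotypes, whereas C1qb over C1qc, C1qb over Cd68 and C8b over Gcg overlap.

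C1rl, which encodes a C1r-like protease, rose, and its adjusted p was the lowest of the members after that of C7. It was at 143, 202 and 184 normalized counts in controls and at 547, 328 and 722 in knockouts. No library overlapped, and the highest value was in knockout replicate 3, not in replicate 1. Its log2 fold change was 1.60 ± 0.27 (SE), with an adjusted p of 1.46e-06 in DESeq2 and 0.130 in edgeR. It passed in DESeq2 whichever library was left out, with log2 fold changes of 1.31 to 1.85. Its neighbour C1ra, 1.76 kb away on the same strand, was at 1004, 1024 and 677 in controls and at 1318, 1082 and 1240 in knockouts. C1ra did not overlap between the groups but did not pass (adjusted p = 0.180, DESeq2), and 48.0% of its 50-base words occur in its near copy C1rb. C1s1, the C1s protease gene, was at 2059 to 2328 in controls and 2317 to 2538 in knockouts and did not pass. The ratio of C1rl to C1ra was 0.14 to 0.27 in controls and 0.30 to 0.58 in knockouts.

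No member of the lectin route passed: of its 5 members 4 were tested, and at an unadjusted p under 0.05, 1 was higher in DESeq2 (Masp2) and 2 in edgeR (Masp2 and Mbl2), both among the genes high in knockout replicate 1. Masp1, a protease gene of this route, was at 346 to 497 in controls and 370 to 538 in knockouts. Fcna, a ficolin gene of macrophages, was at 14.9 to 30.7 in controls and 28.9 to 66.1 in knockouts.

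Among the inhibitors, Serping1 and Cfi rose. Serping1 encodes the C1 inhibitor, which blocks C1r, C1s and the MASP proteases, and was the second most abundant member per kilobase in knockouts. It was at 10730, 10280 and 8866 normalized counts in controls and at 13580, 11143 and 16195 in knockouts, without overlap. Its log2 fold change was 0.45 ± 0.13 (SE, adjusted p = 0.0240, DESeq2). Without control replicate 2 or 3, or knockout replicate 1 or 3, the adjusted p was 0.129, 0.0644, 0.227 and 0.292. Cfi encodes factor I, the protease that inactivates C3b and C4b. It was at 240, 228 and 245 in controls and at 865, 327 and 381 in knockouts, without overlap and highest in knockout replicate 1. The log2 fold change of Cfi was 1.14 ± 0.31 (SE, adjusted p = 0.0146, DESeq2) and 0.57 without knockout replicate 1 (adjusted p = 0.208). Its call was also lost without control replicates 1, 2 or 3 (adjusted p = 0.10, 0.169 and 0.247, DESeq2).

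The surface inhibitors and clusterin did not pass. Clu, which encodes clusterin, was the most abundant member per kilobase in both groups and was at 21872 to 25299 in controls and 25040 to 27486 in knockouts. Cr1l, which encodes the rodent inhibitor Crry, was at 5183 to 5713 in controls and 5536 to 5765 in knockouts, a log2 fold change of 0.04 ± 0.08 with a 95% interval from -0.11 to 0.19. Cd59a, which blocks pore formation, was at 2459 to 3174 in controls and at 3979, 2064 and 2267 in knockouts, with replicate 1 above and replicates 2 and 3 below the controls. Cd55, the decay-accelerating factor gene, was at 234 to 367 and 241 to 421. Cd46, a cofactor for factor I, was at 96.5 to 190 and 115 to 191.

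Receptors for the fragments C3a and C5a were low and none of the 3 passed in DESeq2 or edgeR, nor was any at an unadjusted p under 0.05 in either. C3ar1 was at 125 to 179 in controls and 142 to 200 in knockouts. C5ar1 was at 65.5 to 132 and 94.9 to 154. C5ar2, a second C5a receptor, was at 23.8, 28.8 and 31.8 in controls and at 52.9, 33.0 and 39.9 in knockouts. Its groups did not overlap, but the log2 fold change of 0.58 ± 0.46 did not pass (adjusted p = 0.738, DESeq2).

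**Figure D4:**
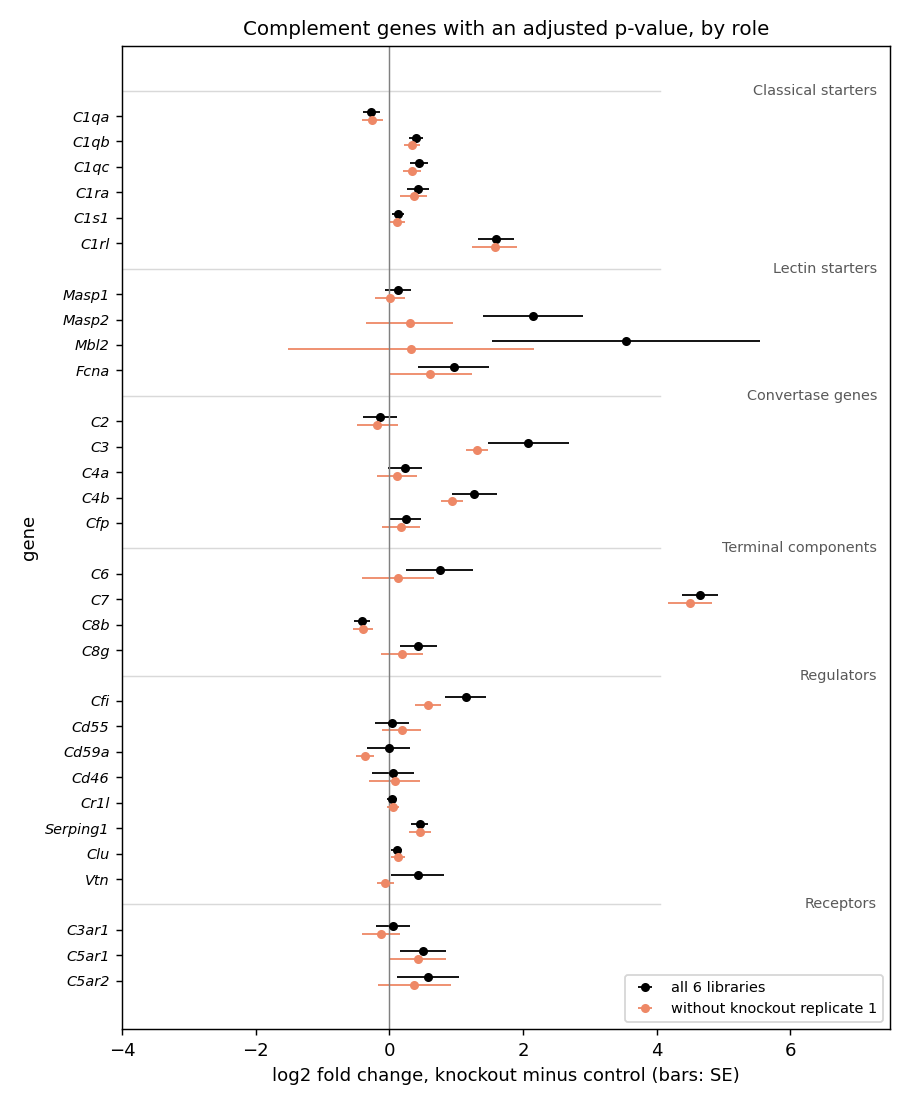
Log2 fold change of knockout against control (horizontal axis, bars show the SE) for the 30 members with an adjusted p-value, grouped by role, with all 6 libraries in black and without knockout replicate 1 in orange. C7 is at 4.50 without that library, whereas Masp2, Mbl2, Vtn, Cfi and C6 move towards 0. C3 (2.08 to 1.31) and C4b (1.27 to 0.94), which are outside the liver-made subset, also move towards 0.

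**Figure D5:**
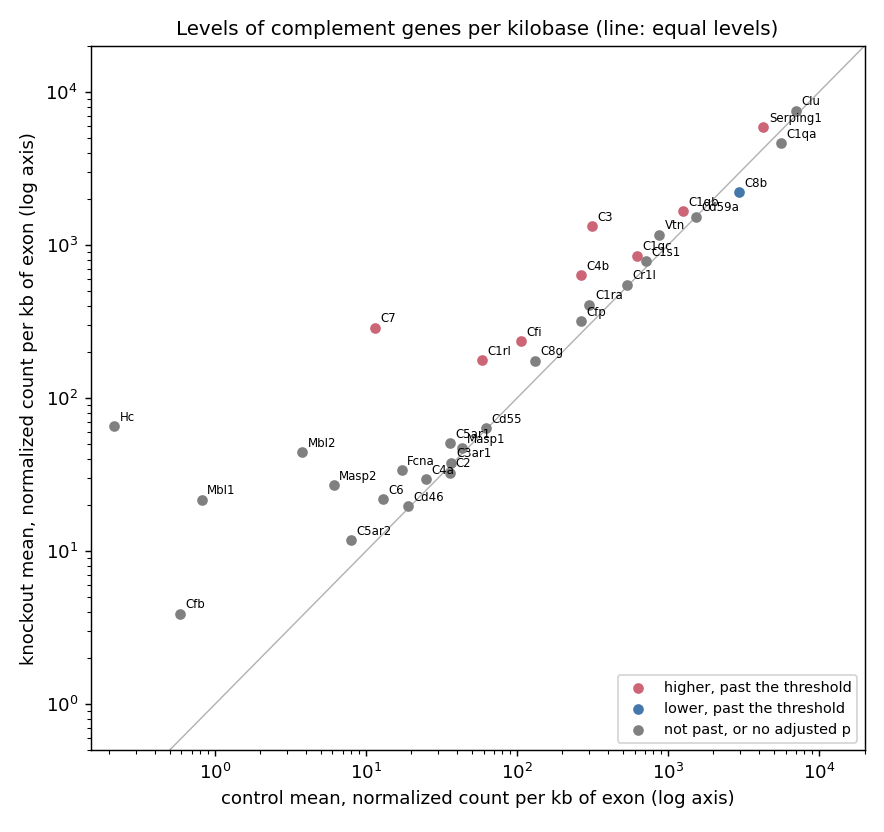
Mean normalized count per kilobase of exon in control (horizontal) and knockout islets (vertical), both on log axes, for the members above 0 in controls, with members that rose in red, C8b, which fell, in blue and the line of equal levels in grey. Most members lie near the line over a wide range of levels, with C7 rising from 11.4 to 288. Hc (0.215 to 65.4) and Mbl1 (0.815 to 21.7) lie farther from the line, both through knockout replicate 1.

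Of 23 further complement genes 20 entered the fit and 13 were given an adjusted p-value by DESeq2. Cpn2, the regulatory subunit of carboxypeptidase N, rose (adjusted p = 0.0311, DESeq2). It was at 0 in all controls and at 333, 20.6 and 3.99 in knockouts, in the order of Alb, and its call was lost in 5 of the 6 fits that left out 1 library. The highest adjusted p over all its alternatives was 0.315, in edgeR. Cpn1, the catalytic subunit of the same enzyme, behaved otherwise, at 9535, 10251 and 9557 in controls and at 8814, 9701 and 8472 in knockouts. C4bp, the binding protein for C4b, was at 338 in knockout replicate 1 and at 22.0 to 26.9 elsewhere. Cfd, Fcnb and Cd55b were at 0 in all 6 libraries, which allows up to 3 counts in each. Itgb2, the shared chain of complement receptors 3 and 4, was at 257, 342 and 329 in controls and at 508, 342 and 487 in knockouts and did not pass (adjusted p = 0.179, DESeq2).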

How the data were processed

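The authors deposited 1 table of raw read counts per gene for all 6 libraries; per the submitters' processing notes FastQC, STAR, featureCounts and DESeq2 were used with build mm10, and the file name records cutadapt trimming. Strand setting and annotation are not given in the sources used here; all 55536 gene identifiers match GENCODE M21 (GRCm38), used for positions, exon lengths and overlaps. Of counts from 1 to 20, 84.3% to 87.3% were even, as they would be if both reads of a pair were counted, so floors of 3 counts (0.0272 to 0.0296 CPM) cover counting error only and may be too low.

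Following the series' design text, which has DESeq2 and no batch term, DESeq2 1.42.0 (R 4.3.3, Wald test, default filters, size factors) was fitted to genes with at least 10 counts in total, with Benjamini-Hochberg adjustment over all genes and a threshold of 0.05. Fold changes are unshrunken. Alternatives were edgeR 4.0.16 (quasi-likelihood, TMM), other filters, TMM factors, an adjusted p of 0.1, a replicate block and each library left out. The fits were tested on simulated data. Replicate pairs differed by 40.0 to 120.0 times the sampling noise (chi-square over degrees of freedom). No column of the table was left unused. The members, gene lists and roles were chosen with earlier results of these data known. The rule for named genes was that all 35 members and 23 further complement genes are considered, with values per library at a mean of at least 50 in either group. It was not kept throughout, since some members above that mean are given as ranges and Mbl1, Mbl2 and C5ar2, below it, by library. Lists of mesothelial, endothelial, neutrophil, adipocyte, beta and delta markers were also fixed: of their 6, 8, 5, 5, 6 and 3 genes DESeq2 gave 3, 8, 1, 1, 6 and 3 an adjusted p-value, and 0, 0, 0, 1, 0 and 0 passed, with 1, 1, 0, 1, 3 and 0 at an unadjusted p under 0.05, and in edgeR none passed, with 1, 2, 0, 1, 2 and 0 unadjusted. Some results are not reported here.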

Additional observations from a re-analysis of the deposited data

How the results depend on the processing

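Over all genes, 389 passed in DESeq2. The edgeR test gave 29, an adjusted p of 0.1 gave 614, and leaving out 1 library gave 153 (without knockout replicate 1) to 952 (without control replicate 3); 69.9% of the 389 were higher, and 82.8% of the 29. Members that rose numbered 8, against 1 in edgeR and 4 to 11 when 1 library was left out, with 5 without control replicate 1 and 4 without control replicate 2, control replicate 3 or knockout replicate 1. Some of these fits called members that did not pass with all libraries, as given above. Members that fell numbered 1, against 0 in edgeR and 0 to 1 when 1 library was left out (1 to 2 at an unadjusted p under 0.05 in these DESeq2 fits). The other alternatives without a block stayed within 1.5 times these counts. The fits that left out 1 library also hold fewer libraries, and why the counts changed was not tested.

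With the replicate number as a block, 6 members rose and 2 fell (1.65% and 0.816% of all genes), C1qa being the added one (-0.28, adjusted p = 0.0383, DESeq2), while C3 (0.0510) and Serping1 (0.569) did not pass. Same-numbered libraries did not pair: their deviations correlated at -0.0587 to 0.0105 over 15811 genes, and 1 of 6 libraries correlated best with its own number.

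The summed level of the liver-made members in knockout replicate 1 was 1.51 times the mean of the other libraries and 1.44 to 1.57 times when one of those was left out. Without C8b, the most abundant, it was 3.57 times, by construction.

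Of 446 fold changes of single members under alternatives, 13 changed sign, 34 lost and 9 gained a call, and 390 did none of these. All 13 arose on leaving out 1 library, for genes that did not pass: the log2 fold change ranged from -0.0011 to 0.27 for Masp1, -0.0043 to 0.42 for Cfp, -0.26 to 0.20 for Cd55, -0.37 to 0.16 for Cd59a, -0.16 to 0.30 for Cd46, -0.0077 to 0.062 for Cr1l, -0.060 to 0.63 for Vtn and -0.12 to 0.16 for C3ar1. Low counts limit Cfb and, outside knockout replicate 1, Hc, C8a, C9, Mbl1 and Mbl2. Without the Cook's distance filter C8a and C9 were also called higher.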

Other observations

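Cr2, the complement receptor gene of B cells and follicular dendritic cells, was at 74.3 normalized counts in control replicate 3 and at 0 to 10.3 in the other 5 libraries. Vsig4, a complement receptor gene of resident macrophages such as those of the liver, was at 28.3 and 4.13 in knockout replicates 1 and 2 and at 0 elsewhere. Itgam, a chain of complement receptor 3, had 19.2 to 30.7 normalized counts in controls and 36.1 to 51.9 in knockouts, and 68.7% of its exon sequence overlaps Gm49368, which was at 0 in every library.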
